A study of Mus musculus with 24 samples.

Results

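Unbled bone marrow was compared with unbled liver in male mice that lack Erfe, on 4 marrow and 4 liver arrays, which are 8 of the 24 arrays of the series. The arrays were chosen by their tissue and time labels alone, and the difference between the tissues was tested in 22070 genes. Both groups carry the genotype Erfe-/-, are labelled as controls at time T0, and differ in the labels by tissue only, so the comparison holds no contrast of genotype or of bleeding. The study profiled male Erfe-/- mice at 0, 24 and 48 h after phlebotomy, with 4 mice at each time. The labels name whole tissues and no sorted cells, and give neither an age nor whether the livers were flushed of blood. Each array was hybridised with Cy3-labelled RNA of 1 sample, extracted with Trizol.

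Erfe encodes erythroferrone, a hormone that erythroblasts of the marrow release when erythropoietin drives red cell production. Erythroferrone binds bone morphogenetic proteins and so lowers the synthesis of hepcidin, the liver hormone that closes the iron exporter ferroportin. Liver and marrow are thus the sending and receiving ends of iron supply: hepatocytes make hepcidin, transferrin and most other plasma proteins, while marrow holds the erythroblasts that take up transferrin iron for heme, beside the precursors of all other blood cells.

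Levels are log2 processed intensities after subtraction of the array's 75th percentile over probes, so a gene at 0 is as bright as that percentile. All differences are marrow minus liver on this log2 scale, with the standard error of the fit, so that 1 means 2-fold higher in marrow and a negative value means higher in liver. Genes were called with limma at a Benjamini-Hochberg adjusted p-value below 0.05. A gene counts as restricted to a tissue when its probe was well above background on all 4 arrays there and none of its probes reached that mark on the other 4. Its fold is then a lower bound, "at least N-fold", under the floor described with the processing. A gene counts as shared when it was well above background on all 8 arrays and the 95% interval of its difference lay within -1 and 1. A probe's brightness depends on its sequence, so levels of different genes are not set against each other. The gene lists and their members were chosen with earlier results of these data known. Counts of called members therefore describe the lists and do not test them. With 4 mice at each time, the 4 livers and the 4 marrows may come from the same 4 animals. The labels do not say that arrays with the same replicate number come from 1 mouse, so the main fit is unpaired. A fit with the replicate number as a block is given below. The p-values measure the spread between these arrays.

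The tissues differed in most of the genes measured. Of 22070 genes, 17871 (81.0%) were called, 8761 (39.7%) as higher in marrow and 9110 (41.3%) as higher in liver. Differences of at least 2-fold were called in 5598 genes (25.4%) towards marrow and 5637 (25.5%) towards liver. Among genes well above background on all 8 arrays, called differences of at least 1024-fold were found in 37 genes towards liver and 2 towards marrow, and 68 liver-restricted and 0 marrow-restricted genes had a lower bound of that size. The lowest detectable level differed between the arrays, which limits such bounds. In all, 1423 genes (6.45%) were restricted to marrow and 602 (2.73%) to liver, and 7148 (32.4%) were shared. Restriction required no least size of difference. The lowest signal well above background was -4.33 to -3.42 on the liver arrays and -4.87 to -4.51 on those of marrow. A dim gene could therefore pass in marrow and miss the mark in liver at a similar level, so the restricted counts are not set against each other. The 4 marrow and the 4 liver values did not overlap in 17055 genes (77.3%), and the median standard error was 0.128. The plot of tissue means against each other shows the restricted genes along its left and lower borders and the shared genes along its diagonal.

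**Figure D1:**
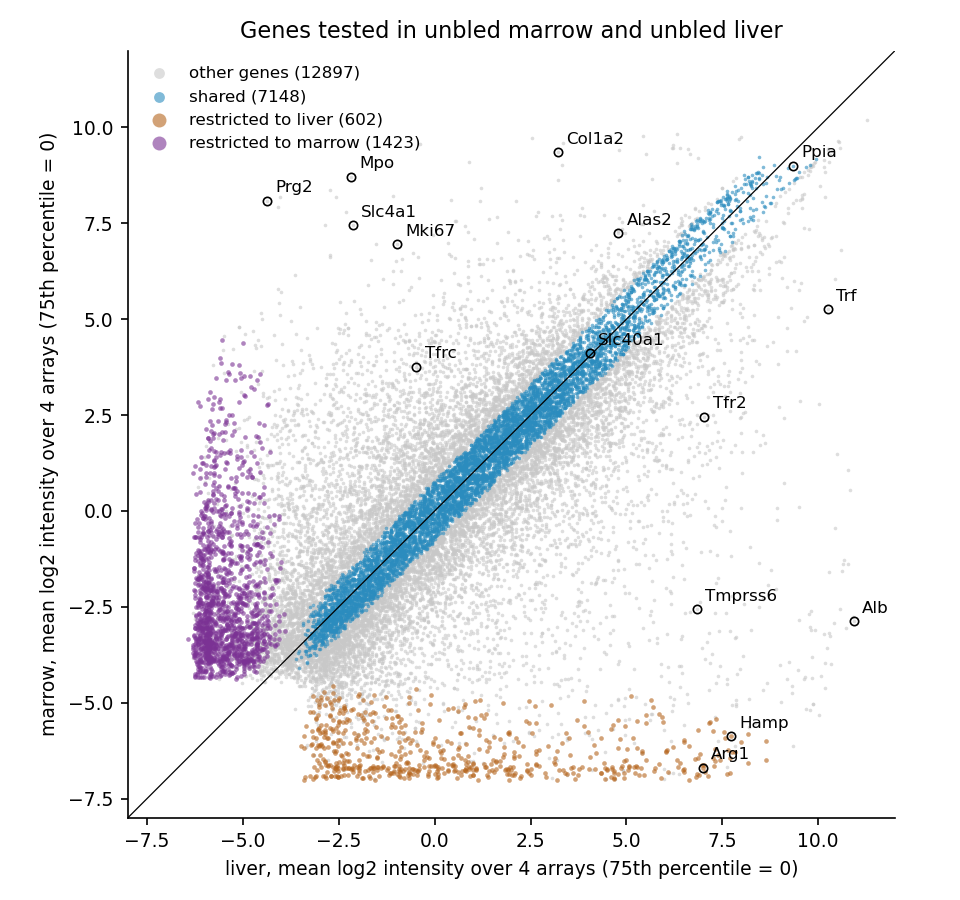
Mean log2 level of each of 22070 genes in unbled liver (x axis) and unbled marrow (y axis), with 0 at each array's 75th percentile, 4 arrays per mean. Colours mark the 602 genes restricted to liver, the 1423 restricted to marrow and the 7148 shared; restricted genes lie at low levels on the axis of the other tissue.

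The balance of these calls rests on how the arrays are scaled. Before scaling, the 75th percentile was 263.5 to 300.8 intensity units on the liver arrays and 501.7 to 667.9 on those of marrow. In turn, 28112 to 32485 of 56605 probes were well above background in liver against 33188 to 34845 in marrow (exact permutation p = 0.0286 for each, the smallest that 4 against 4 arrays can give). The mean log2 signal of the spike-in controls, 13.29 to 13.54 in liver and 13.08 to 13.57 in marrow, overlapped (exact permutation p = 0.629). Scaling to those controls moved the median difference of all genes from -0.04 to 1.07, and 79.6% of calls then lay towards marrow, against 49% here. Without scaling the median was 0.99 and that share 77.7%; without the filter on dim probes it was 36.5%, and with another background correction (normexp) 42.2%. Every difference below is therefore relative to the other genes of the same array, and one between about -1 and 0 can turn positive with the spike-in controls. In whole tissue, fewer cells of a type and less RNA per cell cannot be told apart. Replicates 1 and 2 of both tissues lay on 1 slide, replicates 3 on another and replicates 4 on the last; within these slides, 100%, 99.8% and 99.9% of the genes called with at least 2-fold differences kept their sign, as their choice on the same 8 arrays largely fixes. Livers lay in slide columns 1 and 3 and marrows in columns 2 and 4, so column and tissue cannot be told apart.

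The deleted gene was measured by 2 probes, and on 0 of the 8 arrays was either one well above background. The levels of one Erfe probe were -6.25, -5.41, -5.82 and -6.38 in the livers and -6.87, -6.55, -6.57 and -7.03 in the marrows. Those of the other Erfe probe lay between -5.29 and -4.10 in liver and between -5.88 and -4.19 in marrow. Whether either probe lies in the deleted part was not analysed here, so these values do not check the labels. Epo, the gene of erythropoietin, was likewise not well above background with either of its probes on the 8 arrays.

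Among the genes of hepcidin control, the hormone, its upstream sensors and its inhibitor were all higher in liver. Of the 20 genes in the list of hepcidin and its bone morphogenetic protein pathway, 20 were tested, 16 were called higher in liver, 1 higher in marrow and 3 were not called, with a median difference of -1.84 against -0.04 over all genes. With the spike-in controls 12 were called higher in liver and 6 higher in marrow, and the median was -0.73 against 1.07 over all genes. Hamp, which encodes hepcidin, read 7.18, 7.68, 8.04 and 7.99 in the livers and -6.99, -4.57, -6.71 and -5.19 in the marrows. The liver values lay far above those of marrow, where 0 of 4 arrays read it well above background. Hamp was at least 5460-fold higher in liver (limma, adjusted p = 4.48e-08). Hamp2, a second hepcidin gene of the mouse, read 4.22 to 5.27 in liver and -5.99 to -3.78 in marrow, a fitted difference of -9.70 ± 0.44 (SE) with 1 of 4 marrows well above background.

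The promoter of Hamp is shown because the gene gave one of the 10 largest bounds of all liver-restricted genes, together with those of 2 marrow genes described below, Alas2 and Epor. Capitals mark matches to the letters AGATAA of GATA factors, here read on the other strand. These are RefSeq sequences of GRCm38.p6, on the strand of the gene, that end just before the start of transcription: chr7:30944030-30944179 (minus strand) for Hamp, chrX:150547267-150547416 (plus strand) for Alas2 and chr9:21963577-21963676 (minus strand) for Epor.
Hamp: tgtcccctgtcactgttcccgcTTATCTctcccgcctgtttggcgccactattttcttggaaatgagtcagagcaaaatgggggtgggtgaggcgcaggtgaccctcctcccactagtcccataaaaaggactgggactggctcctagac
Alas2: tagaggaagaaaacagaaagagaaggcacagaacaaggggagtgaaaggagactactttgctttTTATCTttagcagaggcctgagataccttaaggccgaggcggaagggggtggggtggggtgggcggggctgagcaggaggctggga
Epor: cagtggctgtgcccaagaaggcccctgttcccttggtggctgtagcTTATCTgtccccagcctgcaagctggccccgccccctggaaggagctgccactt
The first base of the match stood at -128 in Hamp, -86 in Alas2 and -54 in Epor. On either strand, these letters occur in 11.2% of all 32851 promoter windows of 300 bases, and a match is a description of the letters only. The same letters thus stand before a gene of the liver and genes of the marrow.

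The membrane proteins that set hepcidin were unequal in their margins. Hjv, hemojuvelin, the co-receptor for bone morphogenetic proteins, was restricted to liver, at 1.02 to 1.28 there, and at least 56.8-fold higher. Tmprss6, the protease that cleaves hemojuvelin, read 6.76 to 6.89 in liver and -3.19 to -2.02 in marrow, a difference of -9.39 ± 0.23. Tfr2, the second transferrin receptor, which senses iron in hepatocytes and also sits with the erythropoietin receptor in erythroblasts, read 7.35, 6.71, 7.16 and 6.90 in the livers and 2.18, 2.43, 2.50 and 2.74 in the marrows. It was well above background on all 8 arrays, and its difference of -4.57 ± 0.17 (limma, adjusted p = 3.03e-08) was matched by its other probe at -4.49. Hfe, the hemochromatosis protein, differed by -2.16.

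Ligands, receptors and targets of the bone morphogenetic protein pathway ranged from -3.90 to 0.61 among those named here. Bmp2, made mostly by endothelium, was higher in liver at -3.32, while Bmp6, the ligand that follows iron stores, was called higher in marrow at 0.55 (limma, adjusted p = 0.014). The type II receptor Acvr2a differed by -3.02. The target Atoh8 was higher in liver at -3.90, while Id1, at 0.61, was not called (limma, adjusted p = 0.054) and Smad6, at 0.03, was shared. The targets of 1 pathway thus did not differ alike between the tissues.

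The signals thought to pass from erythroid cells to hepcidin could be tested in 4 of 6 genes, Erfe and Epo being not well above background. Epor, the erythropoietin receptor, read -0.29, -0.59, -0.30 and -0.52 in the livers and 4.46, 4.56, 4.54 and 4.99 in the marrows, 5.06 ± 0.14 higher in marrow (limma, adjusted p = 5.21e-09). Gdf15, a cytokine of stressed erythroblasts and of many other cells, was higher in liver at -2.34 ± 0.31, and so was Twsg1, which binds bone morphogenetic proteins, at -1.79 ± 0.09. Fgl1, a liver-made protein that antagonises bone morphogenetic proteins, was read by a pair of probes that disagree in size. The probe with the higher mean over the 8 arrays shares sequence repeated in the genome and differed by -2.22. The other differed by -13.41. It read 8.97, 6.14, 7.90 and 6.33 in the livers and -4.18 to -7.00 in the marrows, where 1 of 4 arrays was well above background.

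Of 20 genes for iron uptake, storage and export, all tested, 10 were called higher in liver, 6 higher in marrow and 4 were not called, beside 41.3% and 39.7% of all genes called in these directions. Their median was -0.20 here and 0.91 with the spike-in controls. Tfrc, the transferrin receptor that brings iron into erythroblasts, read -0.67, 0.33, -0.35 and -1.21 in the livers and 3.62, 3.75, 3.75 and 3.93 in the marrows. The groups were far apart, by 4.24 ± 0.29 (limma, adjusted p = 1.42e-06). Trf, transferrin itself, was higher in liver at -5.00 ± 0.12 but well above background in marrow too, at 5.05 to 5.48. Past the receptor, the mitochondrial iron importer Slc25a37 (mitoferrin 1) read 2.67 to 2.98 in liver and 6.93 to 7.51 in marrow, 4.27 ± 0.14 higher in marrow, while its relative Slc25a28 (mitoferrin 2) differed by -0.02 (1.09 with the spike-in controls). The divalent metal transporter Slc11a2 was 1.49 higher in marrow, and Slc39a14, which takes up iron not bound to transferrin, was higher in liver at -4.38.

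Storage and export held both small and large differences. Slc40a1, ferroportin, the exporter that hepcidin closes, read 4.14, 3.67, 4.16 and 4.20 in the livers and 3.89, 4.19, 4.14 and 4.28 in the marrows. The groups overlapped, with a difference of 0.08 ± 0.14 and a 95% interval from -0.25 to 0.41 (limma, adjusted p = 0.62); with the spike-in controls the difference was 1.19. Cp, ceruloplasmin, which oxidises exported iron, was higher in liver at -5.67. The ferritin chains Ftl1 and Fth1 were higher in liver at -1.19 and -0.71, and Fth1 turned to 0.40 with the spike-in controls. Aco1, the iron regulatory protein that doubles as an aconitase, was higher in liver at -3.60, against -1.11 for its relative Ireb2.

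Heme synthesis was higher in marrow at nearly every step. Of its 9 genes, 8 were called higher in marrow, 0 higher in liver and 1 was not called, with a median of 1.32. The first enzyme comes in 2 forms. Alas2, the erythroid form, read 4.67, 5.02, 4.56 and 4.90 in the livers and 6.96, 7.15, 7.21 and 7.64 in the marrows, a difference of 2.45 ± 0.16 (limma, adjusted p = 1.33e-06). Alas1, the form of all other cells, read 6.33, 3.92, 5.56 and 5.13 in the livers and 5.39, 4.75, 5.20 and 4.87 in the marrows, and was the gene not called (-0.18 ± 0.45, 95% interval -1.22 to 0.86, limma adjusted p = 0.722). The later enzymes Ppox, Uros, Fech and Urod were higher in marrow by 2.12, 1.51, 1.32 and 1.15.

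Alas2 signal in liver was 16.8%, 21.5%, 15.6% and 19.8% of its level in marrow, whereas Slc4a1, the anion exchanger of the red cell membrane, was at 0.0778%, 0.112%, 0.0757% and 0.415% of its marrow level. The erythroid genes therefore did not share 1 ratio between the tissues. Epb42, of the red cell membrane, was well above background on 0 of 4 liver arrays.

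Of 11 tested genes for clearance of heme and hemoglobin, 5 were called higher in liver, 5 higher in marrow and 1 was not called, shares near those of all genes (41.3% and 39.7%). The plasma scavengers were those of liver: Hpx, hemopexin, differed by -13.99 (well above background on 2 of 4 marrows, and -14.66 without the first marrow array) and Hp, haptoglobin, by -2.27. Lrp1, the receptor for hemopexin, differed by -2.72. Hmox1, the inducible heme oxygenase of macrophages, read 3.62, 2.75, 3.08 and 2.77 in the livers and 4.70, 5.10, 5.17 and 5.34 in the marrows, 2.02 ± 0.22 higher in marrow (limma, adjusted p = 2.99e-05). Blvrb, the biliverdin reductase abundant in red cells, the heme exporter Flvcr1 and the heme transporter Slc48a1 were higher in marrow by 1.57, 1.69 and 1.44. The plot of these genes by array shows the separation of most of them and the overlap of Slc40a1 and Alas1.

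**Figure D2:**
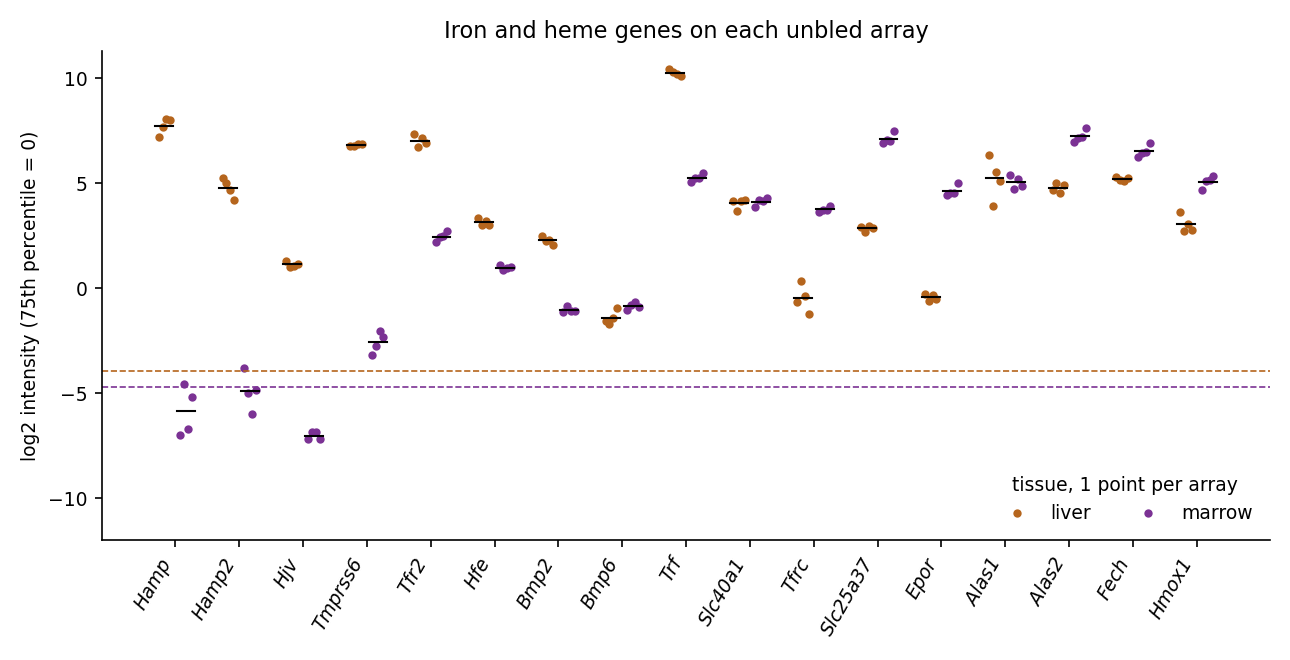
Log2 level of genes for hepcidin control, iron and heme on each of the 4 liver and 4 marrow arrays, with 0 at the array's 75th percentile and every array scaled alike; points are arrays, black bars are means, and dashed lines are each tissue's mean lowest signal above background. Hamp and Epor are separated in opposite directions, while the liver and marrow points of Slc40a1 and Alas1 overlap.

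Hepatocyte genes lay at the liver end of the differences. All 31 plasma proteins of the list were called higher in liver, with a median of -12.92. Alb, albumin, read 11.01, 11.00, 10.84 and 10.87 in the livers and 0.07, -3.11, -4.73 and -3.72 in the marrows. The livers lay close together, while the first marrow array lay above the rest. The difference was -13.80 ± 0.89 (limma, adjusted p = 1.02e-06), and -14.78 and -13.19 without marrow replicate 1 or without marrow replicate 3. The largest lower bounds were those of Apoa5, an apolipoprotein of triglyceride metabolism (at least 10300-fold), Aadac, an esterase (at least 7480-fold), Cfi, complement factor I (at least 6910-fold), Mbl2, a mannose-binding lectin (at least 6610-fold), and Igfbp1, a binding protein of insulin-like growth factors (at least 5850-fold). Fga, the fibrinogen alpha chain, was at least 3960-fold higher, and Apob, the apolipoprotein of low-density lipoprotein, at least 4380-fold. Among genes above background on all 8 arrays, Fgb, the fibrinogen beta chain, led at -13.57, followed by the major urinary protein Mup2 at -13.47. Copies of the Mup genes are nearly identical, so their probes may read each other.

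The promoters of 3 of these genes are printed because they hold the letters of the liver factor HNF1, GTTAAT followed by any base and AT, marked in capitals. They are RefSeq sequences of GRCm38.p6 that end just before the start of transcription, at chr5:90460770-90460869 for Alb, chr3:83026053-83026152 for Fga and chr11:7197687-7197786 for Igfbp1, all on the plus strand.
Alb: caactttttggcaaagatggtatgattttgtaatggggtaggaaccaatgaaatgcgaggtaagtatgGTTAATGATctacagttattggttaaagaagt
Fga: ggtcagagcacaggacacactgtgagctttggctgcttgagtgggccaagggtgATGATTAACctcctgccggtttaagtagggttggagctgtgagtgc
Igfbp1: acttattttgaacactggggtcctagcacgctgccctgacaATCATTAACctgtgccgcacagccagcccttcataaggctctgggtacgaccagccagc
The match began at -32 in Alb on the gene's strand, and at -46 in Fga and -59 in Igfbp1 on the other strand. It was found in 5 of 28 promoter windows of the plasma protein list (17.9%), against 0.801% of all windows. Of the other liver factors counted, matches to HNF4 and CEBP stood in 0 of the 28, against 0.475% and 0.183% of all windows. Matches to FOXA stood in 3 (10.7%), against 3.65% of all. The letters TATAAA of the TATA-binding protein TBP, on either strand, were found in 8 of the 28 (28.6%) against 13.6% of all, and 3.57% of these windows were rich in CpG (at least 0.6 of the CpG number that base composition gives, and at least 50% G and C) against 33.5%. In the 16483 windows matched to genes tested, the shares with HNF1 and TATAAA letters were 0.57% and 9.25%, and 54.9% were rich in CpG. Only 13027 of the 22070 genes tested matched a window, so these shares cover a part of them. RefSeq windows were at hand for 25 of the 31 genes of the list. For the liver-restricted, marrow-restricted, shared and erythroid genes fewer than 80% of the genes matched a window, so the check of their promoters is void.

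The listed enzymes of hepatic metabolism were higher in liver throughout. All 14 genes of the urea cycle and amino acid disposal were called, with a median of -10.23. Cps1, the first enzyme of the urea cycle, was at least 2070-fold higher in liver and Arg1, arginase, at least 3290-fold. Hpd, which degrades tyrosine, was at least 5210-fold higher. All 9 genes of gluconeogenesis and glucose output, all 12 of bile acid synthesis and transport and 14 of 14 tested for drug metabolism were also called higher in liver, with medians of -8.21, -9.34 and -10.64. Abcb11, the bile salt export pump, was at least 4140-fold higher, and Cyp2c29, a cytochrome P450, at least 5620-fold.

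Transcription factors of hepatocytes were higher in liver in 16 of 17 genes, with a median of -8.34. Hnf4a, a nuclear receptor that organises the hepatocyte programme, read 6.99 to 7.41 in liver and -3.44 to -3.02 in marrow, a difference of -10.34 ± 0.13. Foxa2 and the xenobiotic receptor Nr1i2 were at least 326-fold and at least 229-fold higher. The smallest differences of the list were those of Esrra, at -0.39 (not called with the replicate number as a block, and 0.72 with the spike-in controls), Cebpb, at -0.85 and not called (limma, adjusted p = 0.051), and Cebpa, at -3.04.

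With the main scaling, listed markers of other liver cells were higher in liver or not called, apart from 1 bile duct gene. Of 11 Kupffer cell genes, 6 were called higher in liver and 5 were not called, beside 41.3% of all genes called higher in liver. Their median was -1.01 here and 0.10 with the spike-in controls, where 5 were called higher in marrow and 4 higher in liver. Clec4f, a lectin of Kupffer cells, was restricted to liver and at least 630-fold higher, and Vsig4 and Marco differed by -5.15 and -3.89. The macrophage genes C1qa, C1qb and C1qc were at -0.22, 0.01 and 0.09, where C1qa turned to 0.89 with the spike-in controls, and Adgre1, which encodes F4/80, at 0.33. C1qc read 4.32, 3.67, 4.16 and 4.00 in the livers and 4.07, 4.10, 3.97 and 4.38 in the marrows, so the groups overlapped. Sinusoidal endothelium and stellate cells were called higher in liver in 9 of 10 genes each, with medians of -2.92 and -2.75. Examples were Clec4g (-5.58) and Lyve1 (-3.84) for the former and Colec11 (-6.84) for the latter. Of 9 bile duct genes, 7 were higher in liver and 1 higher in marrow, namely Tspan8, a tetraspanin, at 3.64 ± 0.21.

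The listed erythroid genes were higher in marrow without exception, in a list chosen with earlier results of these data known. All 28 of the list were called, with a median of 6.63. Slc4a1 read -2.87, -2.34, -2.91 and -0.46 in the livers and 7.33, 7.41, 7.42 and 7.68 in the marrows, with the fourth liver above the others, and differed by 9.60 ± 0.50 (limma, adjusted p = 2.7e-07). Gata1, the master regulator of the lineage, read -6.24, -4.92, -5.67 and -3.56 in the livers and 4.63, 4.67, 4.79 and 5.13 in the marrows, a fitted difference of 9.90 ± 0.51, with 1 of 4 livers well above background. Among genes restricted to marrow, Ank1, the ankyrin that anchors Slc4a1, was at least 215-fold higher, Epb42 at least 104-fold, and Sptb, a spectrin, at least 79.3-fold. The smallest difference, 0.44, was that of Ermap, whose other probe differed by 9.29. Klf1, an erythroid regulator, and Car2, carbonic anhydrase, were higher by 5.19 and 6.63.

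Neutrophil genes had the highest list medians towards marrow. All 9 tested genes of early granules were called, with a median of 8.15, and 16 of 17 genes of late granules and maturation, with a median of 8.21. Mpo, myeloperoxidase, read -2.90, -3.12, -3.12 and 0.42 in the livers and 9.11, 8.44, 8.89 and 8.45 in the marrows, a difference of 10.90 ± 0.76. Ngp, a late granule protein, read -4.81, -5.37, -5.79 and -0.36 in the livers and 8.25, 7.67, 8.02 and 7.79 in the marrows, a fitted difference of 12.01 ± 1.08. Only 1 of the 4 livers read Ngp well above background, and 3 of 4 read Mpo so. In both genes 3 livers lay together and the fourth lay above them. Without that array the difference of Mpo was 11.77, and Ngp was well above background on 0 livers. Among genes above background on all 8 arrays, Ctsg, cathepsin G, led at 10.32, with Camp, cathelicidin, at 9.97 and S100a8, of the calprotectin complex, at 8.21. Without the fourth liver array these 3 differed by 10.95, 10.90 and 9.05. The exception in the late list was Csf3r, at -0.32 (0.79 with the spike-in controls), read by a probe that shares repeated sequence.

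Eosinophil, basophil and mast cell genes were called higher in marrow in 11 of 13, with a median of 5.27. Epx, eosinophil peroxidase, read -6.40, -5.56, -5.99 and -4.23 in the livers and 4.54, 4.01, 4.70 and 4.55 in the marrows. It was restricted to marrow and at least 333-fold higher, the largest lower bound towards marrow. Prss34 and Mcpt8, proteases of basophils, were at least 305-fold and 224-fold higher, and Ear7, an eosinophil ribonuclease, at least 244-fold.

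Most lymphoid genes were higher in marrow. Of 16 B cell genes tested, 15 were called higher in marrow and 1 was not called, with a median of 5.26, and 16 of 16 were called without probes that share repeated sequence. Vpreb3, of developing B cells, differed by 7.21 ± 0.18, and Igll1, of the surrogate light chain, was at least 38.5-fold higher. Of 14 T and natural killer cell genes, 12 were called higher in marrow and 2 higher in liver, with a median of 2.32. Nkg7, of cytotoxic granules, was higher in marrow at 5.17. The 2 exceptions were Cd3e at -0.74 and the T cell co-receptor Cd4, whose probe read 5.80, 5.74, 5.96 and 5.59 in the livers and 1.72, 1.79, 1.58 and 1.68 in the marrows (-4.08 ± 0.10), while another probe of Cd4 differed by -1.10. With the spike-in controls Cd3e turned to 0.37.

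Of 11 tested monocyte and dendritic cell genes, 8 were higher in marrow, 1 higher in liver and 2 not called, with a median of 3.84. The gene higher in liver was Siglech, at -0.50 on a probe that shares repeated sequence, while its other kept probes differed by -2.31 and 4.38. With the spike-in controls all 11 were called higher in marrow. The monocyte genes Ccr2 and Ly6c2 differed by 5.60 and 5.09, while Csf1r, the receptor of macrophage colony-stimulating factor, was at -0.06 (1.05 with the spike-in controls). Megakaryocyte genes were higher in marrow in 14 of 14, with a median of 6.06. Ppbp and Pf4, chemokines of platelets, differed by 9.35 and 7.01, and Gp1ba, of the platelet receptor for von Willebrand factor, was at least 87.8-fold higher.

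Stem and progenitor genes were mixed, with 9 of 14 called higher in marrow, 3 higher in liver and 2 not called, and a median of 2.27. Myb, a regulator of progenitors, differed by 10.06 ± 0.44 in the fit (well above background on 1 of 4 livers), Cd34 by 3.41 and Kit, the receptor of stem cell factor, by 2.23 ± 0.17. The genes higher in liver were Mecom (-3.62), Hlf (-2.95) and Procr (-1.01), and Procr turned to 0.10 with the spike-in controls. Genes of marrow stroma and bone were higher in marrow in 13 of 15, with a median of 4.77. Lepr, the leptin receptor gene, was called higher in liver at -0.48 on its brightest probe, while its other kept probes differed by 1.20, 2.21 and 3.40. With the spike-in controls all 15 were called higher in marrow. Bglap2, an osteocalcin gene of osteoblasts, read -1.81, -1.75, -2.68 and 1.45 in the livers and 8.87, 9.21, 8.94 and 9.08 in the marrows (10.22 ± 0.78, and 11.11 without the fourth liver array). Col1a1, of collagen I, differed by 7.20, and Adipoq and Ibsp, of adipocytes and bone, were at least 141-fold and 108-fold higher. Cxcl12, the chemokine that retains stem cells in marrow, was shared, at 0.34.

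**Figure D3:**
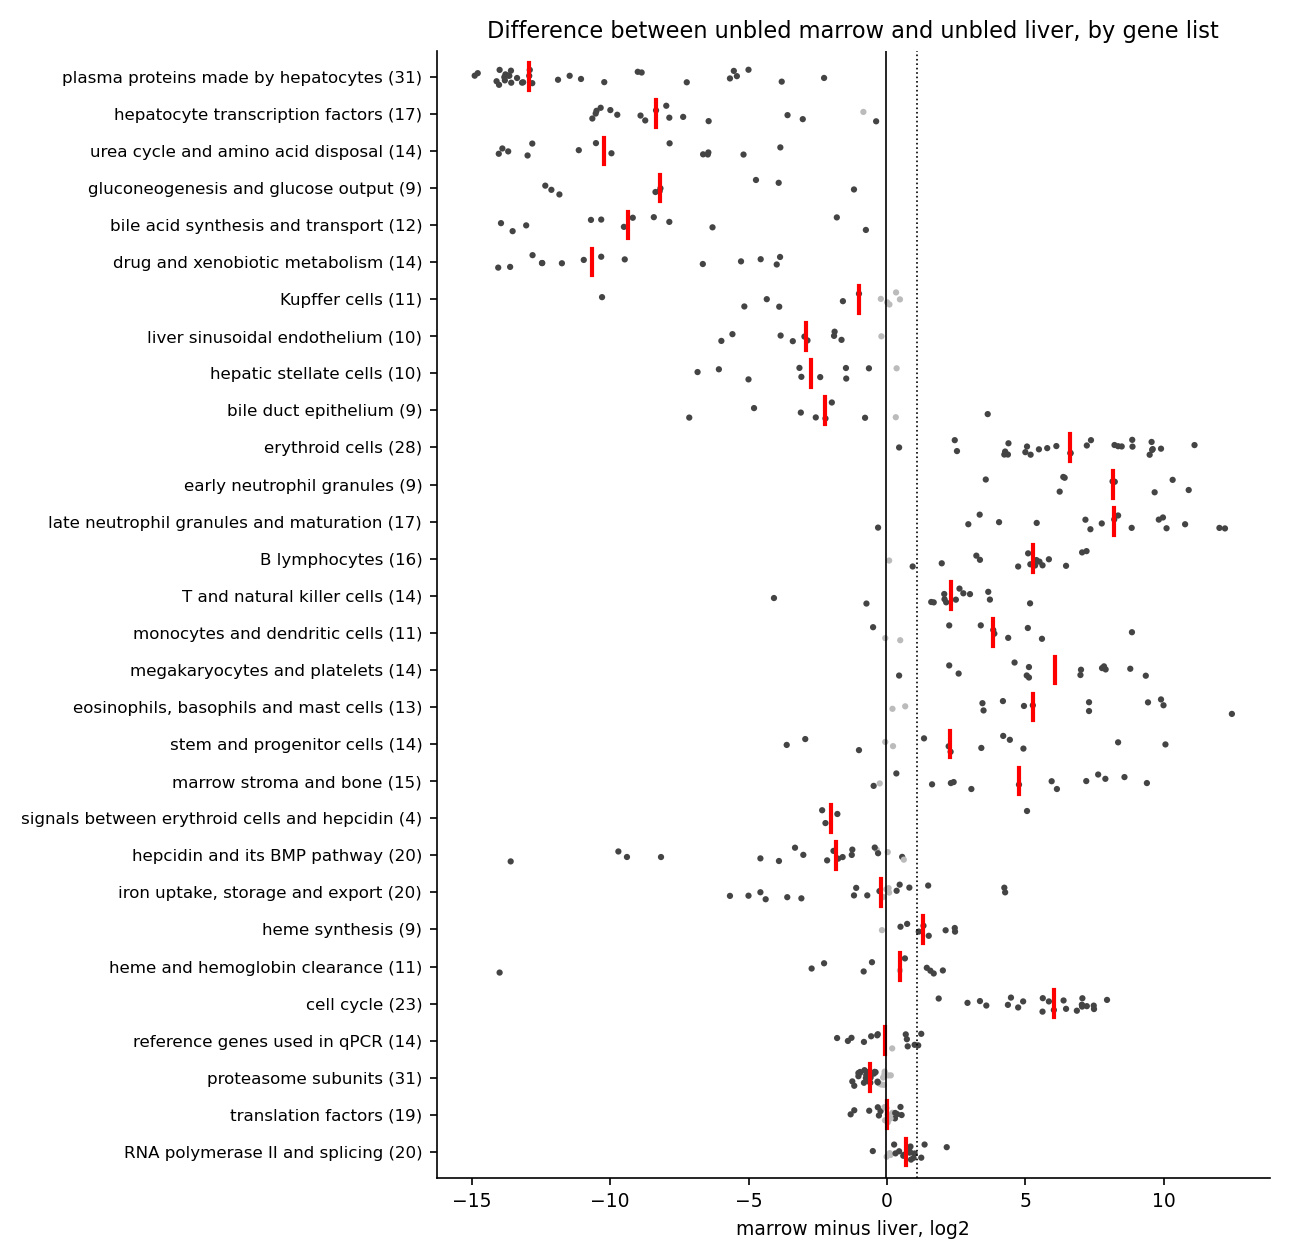
Marrow minus liver difference on the log2 scale for each tested member of the gene lists; dark points were called by limma, pale points were not, red bars are list medians. The solid line is the median of all 22070 genes (-0.04) and the dotted line that median with spike-in scaling (1.07); medians of the hepatocyte lists lie to the left of both lines and those of the erythroid, neutrophil and cell cycle lists to the right, with single members such as Ermap (0.44) and Csf3r (-0.32) elsewhere, and the proteasome and Kupffer cell medians lie near the lines.

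The listed genes of the cell cycle were all higher in marrow: 23 of 23 were called, with a median of 6.03. Mki67, the Ki-67 antigen of dividing cells, read -0.98, -1.33, -1.36 and -0.27 in the livers and 6.85, 6.93, 6.97 and 7.09 in the marrows, 7.95 ± 0.23 higher in marrow (limma, adjusted p = 7.79e-09). Top2a, topoisomerase II, read -2.94 to -1.87 in liver against 4.75 to 4.95 in marrow. Cdk1, the kinase of mitotic entry, and Ccnb2, a cyclin it binds, differed by 7.05 (Cdk1 well above background on 1 of 4 livers) and 6.38. The smallest difference, 1.87, was that of Tk1, thymidine kinase. The histone genes H1f5 and H2ac4, at 8.21 and 7.67, were among the 10 largest differences towards marrow.

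Promoters of 3 cell cycle genes are printed because they repeat the letters CCAAT of the factor NF-Y, in capitals on either strand. They are RefSeq sequences of GRCm38.p6 on the gene's strand, all minus, that end just before the start of transcription: chr11:99024190-99024339 for Top2a, chr10:69352913-69353012 for Cdk1 and chr9:70421555-70421654 for Ccnb2.
Top2a: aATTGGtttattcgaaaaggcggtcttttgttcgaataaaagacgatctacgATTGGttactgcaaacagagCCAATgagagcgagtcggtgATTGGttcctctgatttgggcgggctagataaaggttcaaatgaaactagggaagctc
Cdk1: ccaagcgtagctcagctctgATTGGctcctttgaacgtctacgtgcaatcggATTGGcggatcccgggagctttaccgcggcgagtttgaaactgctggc
Ccnb2: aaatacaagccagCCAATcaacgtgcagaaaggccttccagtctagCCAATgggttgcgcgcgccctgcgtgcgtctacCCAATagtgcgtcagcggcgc
The matches began at -149, -98, -78 and -58 in Top2a, at -80 and -48 in Cdk1, and at -87, -54 and -21 in Ccnb2. These letters stood in 18 of 21 promoter windows of the cell cycle list (85.7%), against 37.4% of all windows and 37.6% of those matched to genes tested. Of the 21, 76.2% were rich in CpG, against 33.5% of all windows and 54.9% of those matched to genes tested. RefSeq windows were at hand for 20 of the 23 genes.

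With the main scaling, genes of the proteasome and of translation were mostly shared. Of 31 proteasome subunits, 22 were shared, 23 were called higher in liver and 8 were not called, with a median of -0.60 that turned to 0.51 with the spike-in controls, where 18 were called higher in marrow and 0 in liver. Psmd2, of the regulatory particle, read 4.59, 4.71, 4.70 and 4.79 in the livers and 4.11, 4.05, 3.96 and 3.98 in the marrows, a difference of -0.67 ± 0.08 that became 0.44 with the spike-in controls. Of 19 translation factors, 17 were shared, 5 were called higher in marrow and 6 higher in liver, with a median of 0.02. With the spike-in controls that median became 1.13, with 17 called higher in marrow and 0 in liver. RNA polymerase II and splicing genes were shared in 12 of 20, with 16 called higher in marrow, 1 higher in liver and a median of 0.69.

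Promoters of 3 proteasome genes are printed because they hold the letters CCGGAAG of ETS factors, in capitals and here read on the other strand. They are RefSeq sequences of GRCm38.p6 that end just before the start of transcription, at chr12:100110102-100110201 for Psmc1, chr11:107479428-107479527 for Psmd12 and chr16:20651552-20651651 for Psmd2, all on the plus strand.
Psmc1: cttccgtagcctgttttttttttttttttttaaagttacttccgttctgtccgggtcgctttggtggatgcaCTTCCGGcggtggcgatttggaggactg
Psmd12: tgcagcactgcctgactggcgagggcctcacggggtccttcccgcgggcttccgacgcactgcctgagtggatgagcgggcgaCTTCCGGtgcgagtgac
Psmd2: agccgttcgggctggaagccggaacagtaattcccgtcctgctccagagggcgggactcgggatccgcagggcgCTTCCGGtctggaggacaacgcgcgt
The match began at -28, -17 and -26. It was found in 11 of 27 windows of the proteasome list (40.7%), against 8.86% of all windows and 14.3% of those matched to genes tested. Of the 27, 81.5% were rich in CpG, against 33.5% of all windows and 54.9% of those matched to genes tested. RefSeq windows were at hand for 25 of the 31 genes. The plot of promoter matches by list sets these shares beside those of all windows.

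**Figure D4:**
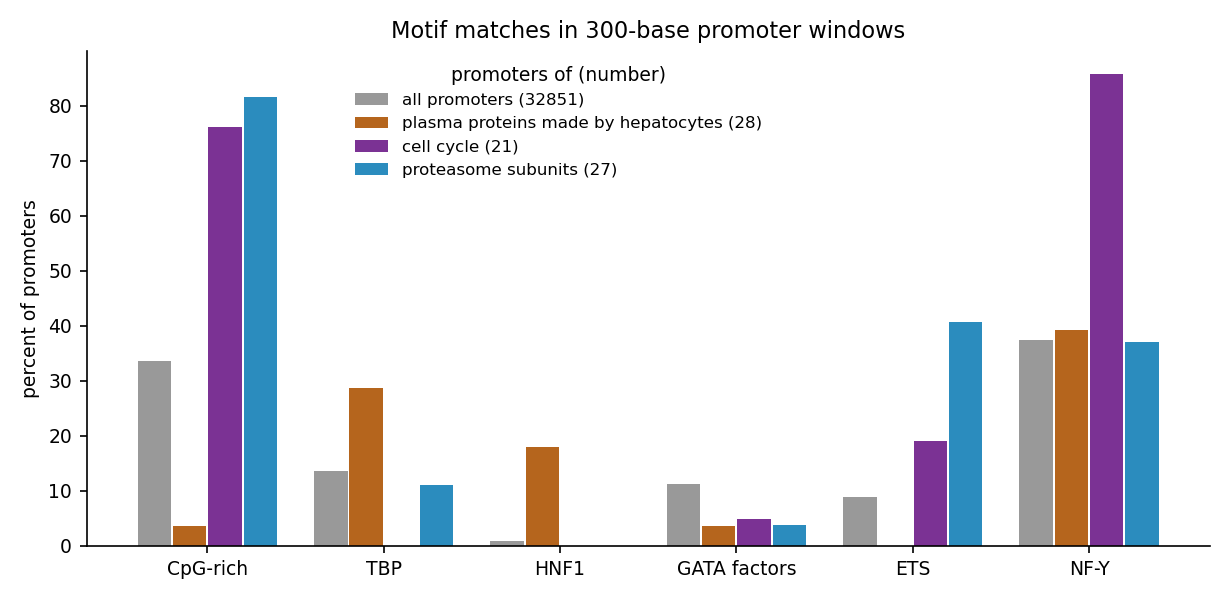
Share of 300-base promoter windows, in percent, that are rich in CpG or hold a motif on either strand (x axis), for all 32851 windows and for the lists of plasma proteins (28 windows), cell cycle (21) and proteasome (27). HNF1 matches are most frequent in the plasma protein windows (17.9%), NF-Y matches in the cell cycle windows (85.7%) and ETS matches in the proteasome windows (40.7%).

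The shared genes with the highest levels on probes free of repeated sequence included those of a folding enzyme and of ribosomal proteins. Ppia, cyclophilin A, read 9.40, 9.36, 9.26 and 9.39 in the livers and 9.17, 8.71, 9.08 and 9.03 in the marrows. The groups did not overlap, yet differed by only -0.35 ± 0.11 (95% interval -0.61 to -0.10). Tpt1 and Rpl10, each at -0.29, turned positive with the spike-in controls, at 0.82 each, as did Ppia at 0.75. Rps18 was at 0.17 and Fau at 0.40.

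Of 14 genes commonly used as references in quantitative PCR, 7 were shared, beside 32.4% of all genes. Of these 14, 7 were called higher in liver, 6 higher in marrow and 1 was not called, shares near the 41.3% and 39.7% of all genes, with a median of -0.07 that became 1.04 with the spike-in controls. Actb, actin, read 8.41, 8.45, 8.50 and 8.54 in the livers and 9.41, 9.01, 9.22 and 9.24 in the marrows (0.75 ± 0.10). Gapdh, a glycolytic enzyme, read 9.23, 9.14, 9.24 and 9.32 in the livers and 8.63, 8.21, 8.42 and 8.33 in the marrows (-0.83 ± 0.10), and turned to 0.28 with the spike-in controls. The gene not called was Hprt, at 0.19 (limma, adjusted p = 0.072). B2m, of class I antigen presentation, differed by -1.41 and Polr2a, the large subunit of RNA polymerase II, by 1.24.

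Some genes counted as shared were read by probes with repeated sequence, and another probe of the gene could disagree. Of 56605 probes, 709 (1.25%) hold a word of 15 bases that recurs in probes from at least 5 other chromosomes, such as CTGAAGACAGCTACA or CTACACAGAGAAACC. Such a probe represented 522 genes, of which 215 were among the 7148 shared, beside 6933 of the 21548 other genes. The bile acid transporter Slc10a1 is the clearest case: its repeat-sharing probe differed by -0.76 (0.34 with the spike-in controls), while its other probe read 6.59 to 6.82 in liver and -6.69 to -5.55 in marrow. Without these probes, 6996 of 21739 genes tested were shared.

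Many steps of metabolism are encoded by a gene of the liver and a relative used by other cells, and 22 such pairs, hepcidin, transferrin receptors and mitoferrins included, were looked at. In 14 the first gene was called higher in liver and the second higher in marrow, in 4 both were higher in liver, in 1 both higher in marrow, and in 3 a gene was not called. Arg1 was at least 3290-fold higher in liver, while Arg2, the mitochondrial arginase, was restricted to marrow and at least 10.3-fold higher there. G6pc, the glucose phosphatase of glucose output, differed by -11.83 in the fit (well above background on 1 of 4 marrows), and its relative G6pc3 by 1.50. Hk1, a hexokinase of most cells, differed by 0.09 on its brightest probe and by 4.65 on another. Gys2, liver glycogen synthase, was at least 1130-fold higher in liver, and Gys1, of muscle and other cells, was 3.27 higher in marrow. Mat1a and Cps1, of methionine and carbamoyl phosphate metabolism, were higher in liver, and Mat2a and Cad higher in marrow by 1.04 and 1.18.

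Pkm, the pyruvate kinase of most cells, read 2.39, 2.04, 2.29 and 2.23 in the livers and 6.96, 6.43, 6.70 and 6.52 in the marrows (4.42 ± 0.13). Pklr, the pyruvate kinase of liver and red cells, read 0.60 to 1.22 in liver and -2.48 to -0.05 in marrow (-2.53 ± 0.49). The fatty acid enzymes Acsl1 and Acsl4 did not divide in this way, both being higher in liver, at -2.86 and -1.81. Ldha, the lactate dehydrogenase subunit named for muscle, was higher in liver at -1.47 and Ldhb, named for heart, higher in marrow at 2.24.

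For each tissue, 6 genes that define it were read on the arrays of the other. As a percentage of the liver mean, the 4 marrow arrays held 0.0538%, 0.00592%, 0.00194% and 0.00388% for Alb, and the medians of Serpinc1, Fgb and Ahsg, well above background on all 4, were 0.0126%, 0.00847% and 0.00812%. Alb was well above background on 3 of 4 marrow arrays, Apoa1 on 1 and Cps1 on 0. Their percentages on the other arrays rest on signal too low to give a level. As a percentage of the marrow mean, Mpo was at 0.0317%, 0.0273%, 0.0272% and 0.317% in the livers and Ngp at 0.0146%, 0.0099%, 0.00741% and 0.319%. Mpo was well above background on 3 of 4 livers and Ngp on 1, so the other percentages likewise give no level. The first marrow array held the most Alb and the fourth liver array the most Mpo and Ngp. Vpreb1, of B cells, was well above background on all 4 livers at 1.78% to 2.20%, and Cd79a on 1 of 4, at up to 8.63%. Other genes of the lists stood higher in the tissue where they were lower, among them Trf in marrow and Slc25a37 in liver.

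**Figure D5:**
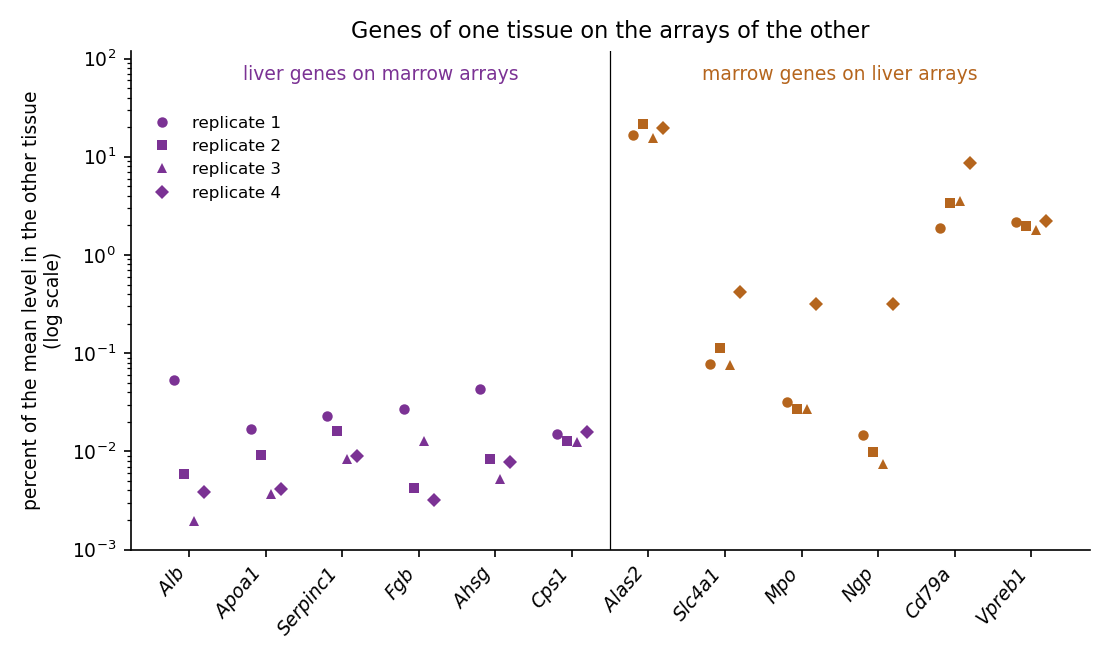
Level of 6 liver genes on each marrow array, and of 6 marrow genes on each liver array, as a percentage of the mean in the other tissue (log axis); points are arrays, by replicate number. Alb is highest on marrow replicate 1, Mpo and Ngp are highest on liver replicate 4, and Alas2 in liver stands at 15.6% to 21.5% of its marrow level; points of Apoa1 and Cps1 in marrow and of Ngp and Cd79a in liver are mostly not well above background.

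Arrays of other mice gave nearly the same differences. Of the 11235 genes called with at least 2-fold differences at 0 h, 10896 (97.0%) were called with the same sign between marrow and liver 24 h after phlebotomy and 10978 (97.7%) at 48 h, while 3 and 0 were called with the other sign. Most genes were called at these times: of all 22070, 17338 at 24 h and 17691 at 48 h, in either direction. On the marrow arrays at 24 h, Alb read -6.61, 9.04, -7.10 and -6.68, and replicate 2 was likewise the highest for Apoa1, Serpinc1, Fgb, Ahsg and Cps1; without it the share at 24 h was 96.7%. The difference between the tissues itself changed after bleeding in 71 genes at 24 h and 70 at 48 h of 22070 (limma, interaction), and in 45 at 24 h without that array. Among genes of the lists, Abcg2, a porphyrin and heme exporter, read 4.93, 4.91, 4.77 and 5.07 in the unbled livers and 3.87, 3.90, 4.22 and 4.32 in the unbled marrows, a difference of -0.84 (0.27 with the spike-in controls) that became 0.38 at 24 h and 0.31 at 48 h. Alad, the second enzyme of heme synthesis, went from 0.49 to 1.15 at 48 h. Cd8b1, of cytotoxic T cells, went from 2.49 to 0.92 at 24 h, and Stab1, of sinusoidal endothelium, from -1.89 to -1.18. Without marrow replicate 2 of 24 h, the 24 h changes of Abcg2 and Stab1 were no longer called (limma, adjusted p = 0.0599 and 0.0594), while that of Cd8b1 was (adjusted p = 0.00683).

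Replicates of a tissue were close. Spearman correlations over 17005 genes above background on all 8 arrays were 0.989 to 0.994 among livers, 0.993 to 0.995 among marrows and 0.744 to 0.760 between them. The median SD over 4 arrays was 0.141 in each tissue, and 73 of these genes had an SD above 1 in liver and 73 in marrow. Mt2, a metallothionein, and Saa1 were among the most variable genes of liver. Mt2 read 8.14, 3.89, 3.84 and 2.67 in the livers and 4.41 to 4.57 in the marrows, and Saa1, serum amyloid A, read 9.66, 5.80, 7.33 and 5.95 in the livers and -1.31 to -0.88 in the marrows. The first liver array was the highest for both. Mt2 was not called (-0.15 ± 1.03, limma adjusted p = 0.90), whereas Saa1 was (-8.22 ± 0.77, limma adjusted p = 1.25e-05). Without the first liver array the difference of Mt2 was 1.02 and was called, and that of Saa1 was -7.39.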

How the data were processed

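The sample labels put 4 arrays in each tissue at 0 h. Per the file headers, the deposited intensity values were extracted by the authors with Agilent Feature Extraction 10.10.1.1, with background subtracted and spatial trends removed, and were not scaled between arrays. The authors also deposited log2 values per tissue; their column medians were 7.74 for liver and 8.31 for marrow, their centring across tissues is not given in the sources used here, and they were not used. Probe positions in the files are those of mouse mm9, while promoter windows are RefSeq's of GRCm38.p6, matched by symbol.

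From the intensities, the 3671 control spots and outlier spots were left out, spots of a probe were averaged as log2 values, and the array's 75th percentile over 56605 probes was subtracted. A probe was kept if well above background on all 4 arrays of a tissue, and the kept probe with the highest mean stood for its gene; 0 spots were saturated. Tissues were compared with limma 3.58.1 in R 4.3.3 (two-sided, Benjamini-Hochberg over 22070 genes, threshold 0.05), and the script was tested on simulated data. For a restricted gene, the bound sets the bright tissue's mean against a floor averaged over the other tissue's arrays: the lowest signal that any probe had well above background, or the gene's own value where that was greater. Such bounds hold for this processing and this floor. Some probes not well above background read above the floor, so a probe's own limit of detection can be higher and its fold smaller. Motifs of HNF4, FOXA and CEBP were also counted in promoters and are given for the plasma protein list only. Those of CACCC-binding factors, PU.1 and NRF1 were counted and are not described.

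The genes named are Erfe, members of the gene lists and enzyme pairs, and by rule the 10 largest differences, the 10 largest bounds and the 10 highest shared genes, without predicted genes. Mt2 and Saa1 were chosen after their values were seen. The members and lists were chosen with earlier results of these data known. Alternatives covered scaling, background, filters, probes per gene, blocks, weights, arrays in the fit and leaving out each array. Some named genes are not reported here.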

Additional observations from a re-analysis of the deposited data

Results flagged for a closer look

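In 5 comparisons the difference between the tissues was not the same after bleeding as before it (limma, interaction over all 24 arrays, Benjamini-Hochberg over 22070 genes). The marrow minus liver difference of Abcg2 was 1.22 greater at 24 h (adjusted p = 0.0357) and 1.15 greater at 48 h (adjusted p = 0.0473), going from -0.84 to 0.38 and 0.31. That of Alad was 0.66 greater at 48 h (adjusted p = 0.0317). That of Cd8b1 changed by -1.57 at 24 h (adjusted p = 0.00978), and that of Stab1 by 0.70 (adjusted p = 0.0303). Without marrow replicate 2 of 24 h, on which liver genes such as Alb stood far above the other 3 marrow arrays, the 24 h changes were 1.21 for Abcg2 (adjusted p = 0.0599), -1.34 for Cd8b1 (adjusted p = 0.00683) and 0.67 for Stab1 (adjusted p = 0.0594), a fit chosen after seeing the data.

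In 11 groups of 4 arrays, 1 array stood apart from the other 3 by more than Dixon's 95% critical value for the ratio of gap to range, out of at most 316 groups looked at; chance gives about 1 in 20. Liver replicate 4 was high for 2 marrow genes, Mpo at 0.42 (others -3.12 to -2.90) and Camp at 2.40 (others -1.58 to -0.96). Liver replicate 2 was low for Slc40a1 at 3.67 (others 4.14 to 4.20) and Pf4 at -0.09 (others 0.73 to 0.83). Marrow replicate 2 was high for 5 genes: Cp at 2.13 (others 1.74 to 1.77), Slc39a14 at -0.45 (others -1.0 to -0.96), Bmp2 at -0.86 (others -1.13 to -1.09), Procr at -1.34 (others -2.35 to -2.23) and Ibsp at 3.39 (others 2.53 to 2.67). Marrow replicate 1 was high for B2m at 7.23 (others 7.07 to 7.09), and marrow replicate 4 low for Top2a at 4.75 (others 4.91 to 4.95). The cause of these departures was not tested.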

How the results depend on the processing

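The count of called genes, 17871, stayed between 14006 and 24564 under the alternatives that kept the call rule, while its split by direction followed the scaling. Genes higher in marrow and in liver numbered 14476 and 4162 without scaling and 14469 and 3709 with the spike-in controls; without the filter on dim probes 15598 were higher in liver (36.5% of calls towards marrow), and 42.2% of calls lay towards marrow with normexp. Calls of at least 2-fold, an alternative chosen after seeing the data, numbered 11235, 5598 and 5637. Marrow-restricted genes fell to 750 with normexp. Restricted genes fell to 299 for marrow and 143 for liver when any positive and significant signal counted as detection, and to 0 and 0 by construction when probes had to be above background on all 8 arrays. Shared genes numbered 3945 with the spike-in controls and 2518 with an interval within 0.5. Leaving out 1 array at a time gave 17366 to 17809 called genes (8479 to 8710 higher in marrow, 8842 to 9108 in liver), 1418 to 1670 marrow-restricted, 604 to 704 liver-restricted and 6793 to 7190 shared genes.

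Directions that turned without scaling and with the spike-in controls included those of Abcg2 (0.18, 0.27), C1qa (0.80, 0.89), Cd3e (0.29, 0.37), Fth1 (0.32, 0.40), Esrra (0.64, 0.72, and 0.13 with the mean of its probes), Procr (0.01, 0.10), Psmd2 (0.35, 0.44) and Slc25a28 (1.0, 1.09). The same held, and quantile normalization turned them too, for Csf1r (0.97, 1.05, quantile 0.52), Csf3r (0.71, 0.79, 0.25), Gapdh (0.20, 0.28, 0.01), Ppia (0.67, 0.75, 0.63), Rpl10 (0.74, 0.82, 0.64), Slc10a1 (0.26, 0.34, 0.29) and Tpt1 (0.73, 0.82, 0.64). Mt2 ranged from -0.80 without liver replicate 4 to 1.02 without liver replicate 1, and Tpt1, without liver replicate 1, at -0.26, was no longer called. List medians that turned in the same way were Kupffer cells (0.01, 0.10), iron handling (0.82, 0.91) and proteasome (0.42, 0.51). The reference gene median, near 0, became 0.04 with the percentile over probes above background, 0.68 with quantile normalization, 0.95 without scaling, 1.04 with the spike-in controls, 0.08 with normexp and 0 with the mean of the probes. The translation factor median lay between -0.01 and 0.05 when 1 array was left out, at or below 0 without liver replicate 1 or 3 or marrow replicate 1 or 3, and was -0.02 with the mean of the probes. It rose to 0.49 with quantile normalization, 1.05 without scaling and 1.13 with the spike-in controls.

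With the replicate number as a block, 17730 genes were called, 1425 and 602 were restricted to marrow and liver, and 7071 were shared. Cebpb became called, Esrra lost its call, and no other call changed among 158 named genes checked. The deviations of same-numbered arrays correlated at 0.187, 0.0765, 0.144 and 0.124, and those of other numbers at -0.175 to 0.122. In all, 4 livers and 3 marrows correlated best with their own number. Arrays of the same number also lay on the same slide, so a shared mouse and a shared slide cannot be told apart. With 4 arrays per tissue, the number of arrays limits the precision, and signals below background set only bounds.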

Other observations

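A few genes stood apart on single arrays of both tissues. Of the genes in which 1 array stood at least 1.5 above or below the other 3 on the log2 scale, 86 were found in liver, 88 in marrow and 7 in both; in 3 of those 7 the array had the same replicate number in both tissues and in 4 it had another. Adap2os, an antisense RNA, read -2.96, 0.45, -3.17 and -3.40 in the livers and -3.58, 0.40, -4.28 and -3.10 in the marrows, high in replicate 2 of both. The amino acid transporter Slc36a1 read 1.83 in liver replicate 3 (others 0.31 to 0.63) and 2.32 in marrow replicate 3 (others -0.71 to -0.51). These genes were chosen after their values were seen.

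Other genes picked from the most variable were also highest in liver replicate 1: Mt1 at 8.01 (others 3.91 to 5.15), Lcn2 at 5.74 (others 1.48 to 3.56) and Saa2 at 10.15 (others 6.56 to 7.99). Alas1 was also highest there, at 6.33 (others 3.92 to 5.56), as was the second probe of Fgl1, at 8.97. In the marrows Mt1 read 4.71 to 5.20 and Lcn2 8.42 to 8.92. Lox, lysyl oxidase, read 1.52 in liver replicate 2 and -3.76 to -3.38 in the other livers. Cish, a target of STAT5, read 3.45, -0.34, 3.21 and 2.26 in the livers and -0.10 to 0.39 in the marrows.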
